A study of Mus musculus with 2 samples.

Results

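Nonsense-mediated decay (NMD) is the surveillance route that removes mRNAs whose reading frame ends well upstream of the last exon junction. A ribosome that stops there leaves exon junction complexes on the RNA, and these recruit the factors Upf2, Upf3b and Upf1, which the kinase Smg1 phosphorylates. Annotators give a transcript the NMD type from its structure, without a measurement of its decay. Many genes of splicing factors and ribosomal proteins are known to make such transcripts through alternative splicing, in part to limit their own expression.

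The transcripts described here were the rows of the transcript tables whose identifier, without its version, has the type nonsense_mediated_decay in the GENCODE M21 annotation. There were 4687 of them among 129984 rows, in 3064 genes. They are called NMD-typed transcripts, because the type came from a later annotation (M21) than the one used for quantification (M4). The transcript length was unchanged between the annotations for 4411 of them and differed for 276. The start of the coding sequence is annotated as missing in 1326 (28.3%), and 108 carry the tag of a readthrough between neighbouring genes.

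The RNA came from G1E, an immortalised line of mouse erythroid progenitors that is labelled Gata1-, so that both libraries lack the transcription factor that drives red cell maturation. Per the labels the line is of strain C57BL/6J, male and postnatal with an age of 0 day, and no treatment is named. Each of 2 biological replicates gave a total RNA library from 1 ng of molecules above 200 nucleotides, with ERCC spike-ins. As there is 1 group and no control, the levels are a description, and the only test sets one library against the other. The libraries held 31649877 and 40597614 estimated counts, of which 187920 and 154880 fell on NMD-typed transcripts. Of the erythroid progenitor markers 8 of 8 were detected, the 8 lymphocyte markers were listed at 0, and 4 of 7 fibroblast and endothelial markers were at 0 with a summed level of 0.13 and 0.01 TPM, the share of transcripts corrected for length and scaled to a fixed sum.

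The sequences of several NMD-typed transcripts show how the reading frame ends. Each line gives the 30 bases up to and including the annotated stop codon, which is in capitals, from the GENCODE M21 transcript sequences (GRCm38). The first 5 were among the most abundant of these transcripts or took the majority of their gene's TPM, and the other 4 belong to genes of splicing and polyamine metabolism.
Ppia: caaagacagcagaaaactttcgagctcTGA
Rpl12: gggtctgtctccgaagaaagttggcgaTGA
Papola: tgttttgatggaatagaggttgcagggTAA
Eef1b2: aaaaagaaaaggccagcctgccgggagTGA
Bak1: tggccctgtacgtctaccagcgtggttTGA
Clk1: tcacacgggatgaaattgttgatacttTAG
Srrm2: gaggtggcactgaaaagaggacagaacTAG
Sf3b1: tttgcagatggcttctattctgctgctTGA
Sat1: cactggacccctgaaggttacagtctcTAG
In 8 of these 9 the stop codon began within 20 bases of the preceding exon junction, so that the printed stretch crosses that junction. The exception was Bak1, with 89 bases from the junction to the stop. The stop of Ppia lies at chr11:6418241-6418243 on the plus strand, that of Rpl12 at chr2:32962594-32962596 on the plus strand, and that of Clk1 at chr1:58419713-58419715 on the minus strand.

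A stop close behind a junction was common in the whole set. The median distance from the preceding junction to the stop codon was 36 bases over the 4543 NMD-typed transcripts that have such a junction. In transcripts typed protein_coding it was 143 bases. The stop lay within 30 bases of the junction in 44.1% of NMD-typed and 9.26% of protein-coding transcripts. TGA was the stop codon of 57.9% of NMD-typed and 49.6% of protein-coding transcripts. These are properties of the annotation.

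The distance from the stop to the last exon junction is the feature that the annotation rule itself uses. It was at least 50 bases in 4658 of 4686 NMD-typed transcripts with a stop, with a median of 339 bases. Only 0.720% of protein-coding transcripts reached it. A single junction followed the stop in 1107 NMD-typed transcripts. Of these 109 (9.85%) had a TPM of at least 1 in both libraries, against 68 of 547 (12.4%) with 10 or more junctions after the stop.

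Stops were also sorted by where they lie relative to the protein-coding transcripts of the same gene. In 2681 (57.2%) the stop fell inside their coding sequence. In 944 (20.1%) it fell in an exon separate from all coding transcripts, and in 575 (12.3%) in an exon extended beyond theirs. In 329 (7.02%) it was a stop also used by a coding transcript, with an intron downstream of it. The stop inside coding sequence held 63.6% and 62.4% of the TPM on NMD-typed transcripts in replicates 1 and 2, and the separate exon 14.4% and 15.4%. The classes therefore held similar shares in both libraries.

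**Figure D1:**
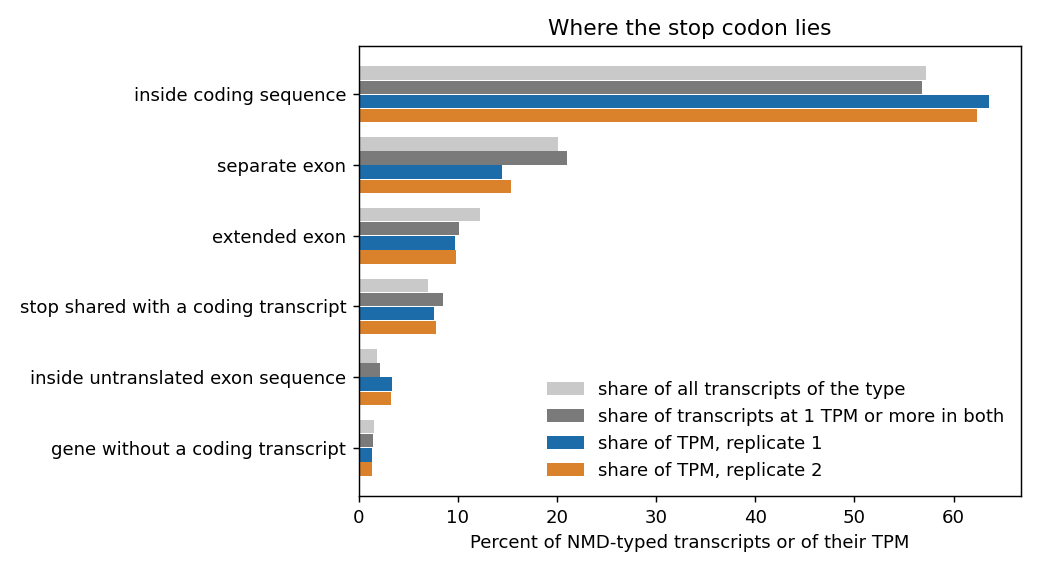
Bars give, for each position of the stop codon relative to the coding transcripts of the gene, the percent of all 4687 NMD-typed transcripts, of the 505 at 1 TPM or more in both libraries, and of the summed TPM in each replicate. The class inside coding sequence is the longest bar on all 4 measures, from 56.8% to 63.6%.

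Among 283 detected transcripts with the stop inside coding sequence and a coding transcript to compare with, 202 differed from the most abundant coding transcript by a single splicing event upstream of the stop. The event was exon skipping in 103, another acceptor site in 51 and another donor site in 39. The skipped length was not a multiple of 3 in 103 of the 103, with a median of 107 nucleotides. This largely follows from the selection, since the stop had to differ from those of the coding transcripts. For detected transcripts with a stop in a separate exon, that exon had a median length of 115 nucleotides. Where the start was annotated (332 detected transcripts with a coding partner), the reading frame had a median of 27.7% of the partner's codons, with quartiles of 15.1% and 52.1%.

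NMD-typed transcripts were a small part of the RNA. Their summed level was 5194 TPM in replicate 1 and 3063 TPM in replicate 2, or 0.519% and 0.306% of all TPM. Relative to the TPM of nuclear protein-coding genes alone, they took 2.57% and 2.36% (2.47% ± 0.152, SD, n = 2). The libraries thus differed by less on this scale than on that of all transcripts. On the same scale retained-intron transcripts took 9.65% and 9.88%, and protein-coding transcripts 81.6% and 81.8%.

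The level was spread unevenly over the transcripts. The 10 most abundant held 22.0% of the NMD-typed TPM in each library, and the 100 most abundant 49.6% and 49.3%. Of the 4687, 2468 were at 0 in both libraries and 1342 had counts in both. A TPM of at least 1 in both was reached by 505 (10.8%), compared with 15.5% of retained-intron and 20.9% of protein-coding transcripts. Detection in this sense rests on the point estimate of TPM. Of the 505, 232 also had a deposited credibility interval that began at 1 TPM or more in both libraries. Stretches of 31 bases absent from the gene's other transcripts were counted for 436 detected transcripts. Among these, 59 had 0 such stretches, and the median share of such stretches was 3.60%. Levels in TPM were lower in replicate 2 in general, with a ratio of 0.654 for the median transcript, and that ratio is the reference for the levels below.

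The most abundant NMD-typed transcript came from Rpl12, a protein of the large ribosomal subunit (ENSMUST00000102811, chr2:32961740-32964043). It had 355 TPM in replicate 1 and 187 TPM in replicate 2, which was 39.5% and 32.4% of the gene's TPM. Its splice donor differs from that of the leading coding transcript, and the frame ends after 84 codons where the coding transcript has 165. Only 29 of its 699 windows of 31 bases are absent from the other transcripts of the gene. A second ribosomal protein transcript, from Rpl10a, had 57.6 and 19.3 TPM but only 11.0% and 6.26% of its gene's TPM. No 31-base window of the Rpl10a transcript is absent from the other transcripts of the gene, so its level rests on how reads were divided among overlapping models.

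Ppia encodes cyclophilin A, an abundant peptidyl-prolyl isomerase that is often used as a reference gene. Its NMD-typed transcript (ENSMUST00000090749, chr11:6415870-6419815) had 256 and 206 TPM, or 74.6% and 75.5% of the gene (mean 75.04% ± 0.665, SD, n = 2). The coding transcript of 164 codons had 81.8 and 37.8 TPM. The share was almost the same in both libraries. The difference in sequence is small, however: another donor site upstream ends the frame after 40 codons, and only 29 of its 716 windows of 31 bases are absent from the other Ppia transcripts. The coding model is 1170 nucleotides long and the NMD-typed model 746.

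Papola, the canonical nuclear poly(A) polymerase, had an NMD-typed transcript at 77.6 and 40.9 TPM. It skips 1 exon of 112 nucleotides, and the frame ends 9 bases after the next junction, with 14 junctions still to come. In Psme1, an activator subunit of the proteasome, the transcript had 72.5 and 36.6 TPM, and the stop begins 2 bases after the junction. This Psme1 model is a fragment of 439 nucleotides with no annotated start, where the coding model has 1112. Eef1b2, a nucleotide exchange subunit of translation elongation factor 1, had 61.8 and 36.5 TPM. Eif4a1, the RNA helicase of translation initiation, had 47.1 and 27.7 TPM, or 22.8% of its gene in replicate 1. Windows absent from the gene's other transcripts were few in Papola (33 of 4326), Psme1 (28 of 409) and Eef1b2 (27 of 661). In Eif4a1 there were 106 of 783.

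The remaining 3 of the 10 include a pair that depends on the annotation. The transcript of Hnrnpu, a nuclear RNA-binding protein, had 107 and 60.4 TPM, but it is tagged as readthrough and stood in the deposited tables under a gene identifier of its own, apart from the coding Hnrnpu transcripts. The transcript of Gtpbp4, a GTPase of ribosome assembly, had 58.8 and 34.9 TPM and was the only Gtpbp4 transcript quantified, with a length of 2977 nucleotides in the tables and 2442 in M21. Srrm2, a large protein of the spliceosome, had 50.8 and 23.9 TPM on a short transcript whose stop lies in a separate exon of 95 nucleotides. This Srrm2 model of 647 nucleotides has no annotated start, and 27 of its 617 windows are absent from the other Srrm2 transcripts. The deposited credibility intervals differed in width, from 327 to 361 TPM for Rpl12 in replicate 1 to 20.1 to 31.4 TPM for Eif4a1 and 15.1 to 22.4 TPM for Rpl10a in replicate 2. They are drawn around a posterior mean, so that a point can lie at or beyond their edge.

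**Figure D2:**
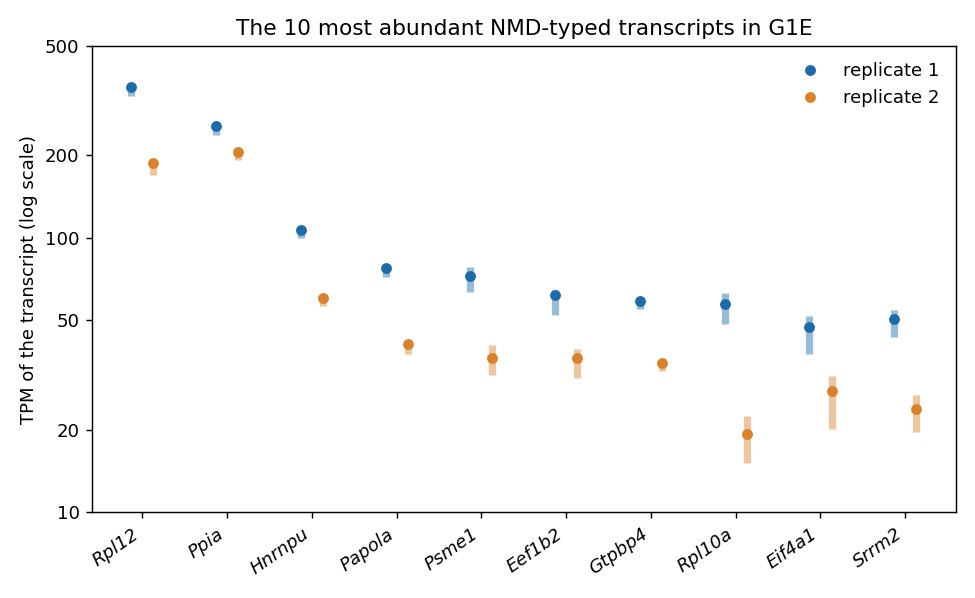
Points give the TPM (log axis) of the 10 most abundant NMD-typed transcripts, by gene, in replicate 1 (blue) and replicate 2 (orange), and thick lines give the deposited credibility intervals. Levels run from 355 TPM for Rpl12 in replicate 1 to 19.3 TPM for Rpl10a in replicate 2, and each transcript is lower in replicate 2, as the median transcript is.

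The same data read per gene give the share of a gene's TPM on its NMD-typed transcripts. Genes were counted as expressed at a summed TPM of at least 5 in both libraries, and 1152 of them had an NMD-typed transcript. For the 1145 that also had another transcript, the median share was 5.62% in replicate 1 and 4.41% in replicate 2, and the upper quartiles were 17.2% and 15.8%. The share was 0 in both libraries for 216 genes. It was at least 10% in both for 321 (27.9% of the 1152). Across these genes the shares of the libraries correlated with Pearson's r of 0.848 and Spearman's rho of 0.747, given as a description over genes that share libraries, models and depth.

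Retained-intron transcripts took a larger part of their genes. In 2395 expressed genes with such a transcript the median share was 15.2% and 16.7%. Of 955 genes with both kinds, the retained introns had the higher share in both libraries in 637 and the NMD-typed transcripts in 157. Compared with the leading coding transcript of the gene, 116 of 491 detected NMD-typed transcripts were higher in both libraries and 292 lower in both. In 48 of the 116 the credibility intervals were also separate in both libraries.

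**Figure D3:**
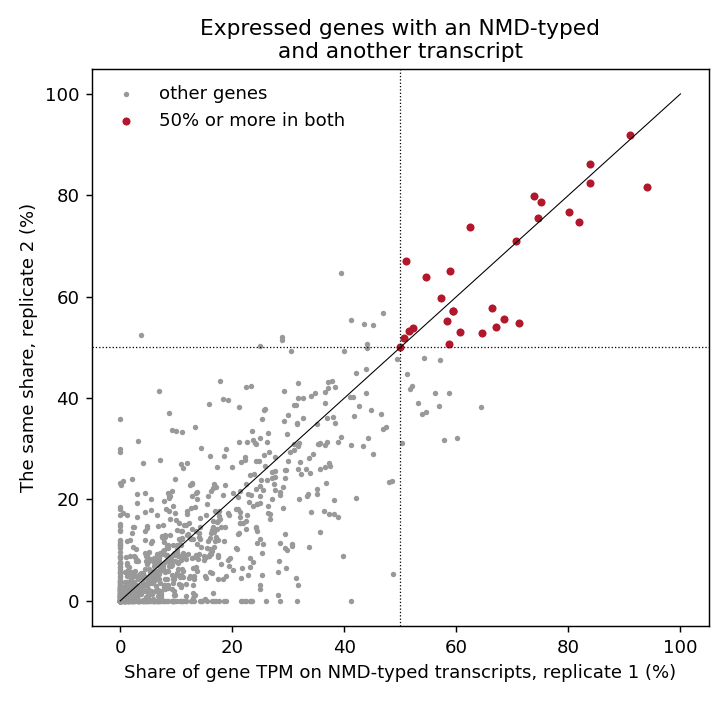
Each point is 1 of 1145 expressed genes, with the percent of its TPM on NMD-typed transcripts in replicate 1 (x axis) and replicate 2 (y axis), and the solid line marks equal shares. Most genes lie near the origin (medians 5.62% and 4.41%), and the genes above 50% in both are red.

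In 36 genes (3.13% of the 1152) NMD-typed transcripts held at least 50% of the TPM in both libraries. The corresponding count for retained introns was 175 of 2395 (7.31%). A majority was seen in 51 genes in replicate 1 and in 46 in replicate 2, so 25 genes passed in 1 library only. Just inside the limit lay Gm38394 (50% in each library), Papola (58.6% and 50.6%) and Mms19 (50.7% and 51.8%). Just outside lay Syce2 (54.2% and 47.8%), Spn (49.5% and 47.8%) and Gpcpd1 (57.1% and 47.6%).

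What the 36 counts hold differs from gene to gene. In 7 the deposited table had no transcript of the gene other than NMD-typed ones, so a share of 100% follows from the annotation, as for Hnrnpu, Gtpbp4 and Mrpl32, a mitochondrial ribosomal protein. The leading transcript changed length between the annotations in 9, and it was a readthrough in 5. In 22 the leading transcript had an unchanged length and no readthrough tag, and the gene had a coding transcript in the table. Among the 27 with unchanged length, 17 rested on at most 60 windows of 31 bases that no other transcript of the gene holds, about the number that 1 or 2 junctions give. In 22 of the 36 the credibility interval of the leading NMD-typed transcript lay above that of the most abundant other transcript in both libraries. That count includes the 7 genes with no other transcript, which pass by construction because no interval stands against theirs.

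Of the 36, 1 was in the list of hnRNPs and other splicing regulators (Hnrnpu) and 0 were in that of SR proteins and their kinases. Eef1b2 had 52.3% and 53.8% of its TPM on NMD-typed transcripts, at a gene level of 123 and 71.4 TPM. The leading one differs at both ends of an intron, ends after 68 codons and had 61.8 and 36.5 TPM, against 16.5 and 7.79 TPM for the leading coding transcript. Jmjd6, a dioxygenase that modifies splicing factors, had 68.5% and 55.5%. Its leading NMD-typed transcript has no annotated start. Qk, the quaking RNA-binding protein, had 91.0% and 91.8% on a transcript that ends at a stop shared with a coding transcript and has an intron after it, but this model is 4658 nucleotides long in the tables and 5832 in M21.

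Bak1, a pore-forming effector of mitochondrial apoptosis, had 73.9% and 80.0% of its TPM on an NMD-typed transcript with 35.9 and 23.8 TPM (chr17:27019812-27028578, minus strand). The coding transcript of 209 codons had 11.9 and 5.41 TPM. In the NMD-typed transcript the frame ends after 151 codons, 89 bases before the last junction, and 47 of 1944 windows are absent from the other Bak1 transcripts. Kmt2a, a histone H3 lysine 4 methyltransferase, had 59.4% and 57.2% on a fragment of 2146 nucleotides with no annotated start, where the coding model has 16439. Wiz, a zinc finger partner of the G9a and GLP methyltransferases, had 71.2% and 54.8%, also on a model that changed length.

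Exon skipping defined 3 more of them. Acer3, an alkaline ceramidase, skips 53 nucleotides, and its NMD-typed transcripts held 58.3% and 55.2%. Clca3a1, of the calcium-activated chloride channel regulator family, skips 101 nucleotides and held 54.6% and 63.8%. In Lrrc40, a leucine-rich repeat protein, 4 NMD-typed transcripts together held 58.8% and 65.1%. The leading one skips 74 nucleotides and held 21.3% and 42.1%. It has no annotated start, and it changed length from 725 to 732 nucleotides. It was also called higher in replicate 2, at a ratio of 2.63 after TMM scaling. None of the 3 lengths is a multiple of 3, which again largely follows from the type.

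For the remaining named genes the shares were 64.5% and 52.8% in Glo1, the glyoxalase that clears methylglyoxal, on a model of changed length. They were 66.3% and 57.8% in Pcnp, a PEST-containing nuclear protein, and 75.2% and 78.7% in Fbxo22, an F-box subunit of an SCF ubiquitin ligase. For Fbxo22 the interval of the leading transcript was wide, from 0.610 to 11.6 TPM in replicate 1, and the gene has 2 NMD-typed transcripts. Naa60, an N-terminal acetyltransferase of the Golgi, had 80.2% and 76.8%, and its leading transcript has 0 unique windows. Gm38394 had 50% because its NMD-typed and its coding transcript, both 10156 nucleotides long, cannot be distinguished by any window. Gm45062, a readthrough transcript listed under another gene in the tables, had 94.1% and 81.7%.

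**Figure D4:**
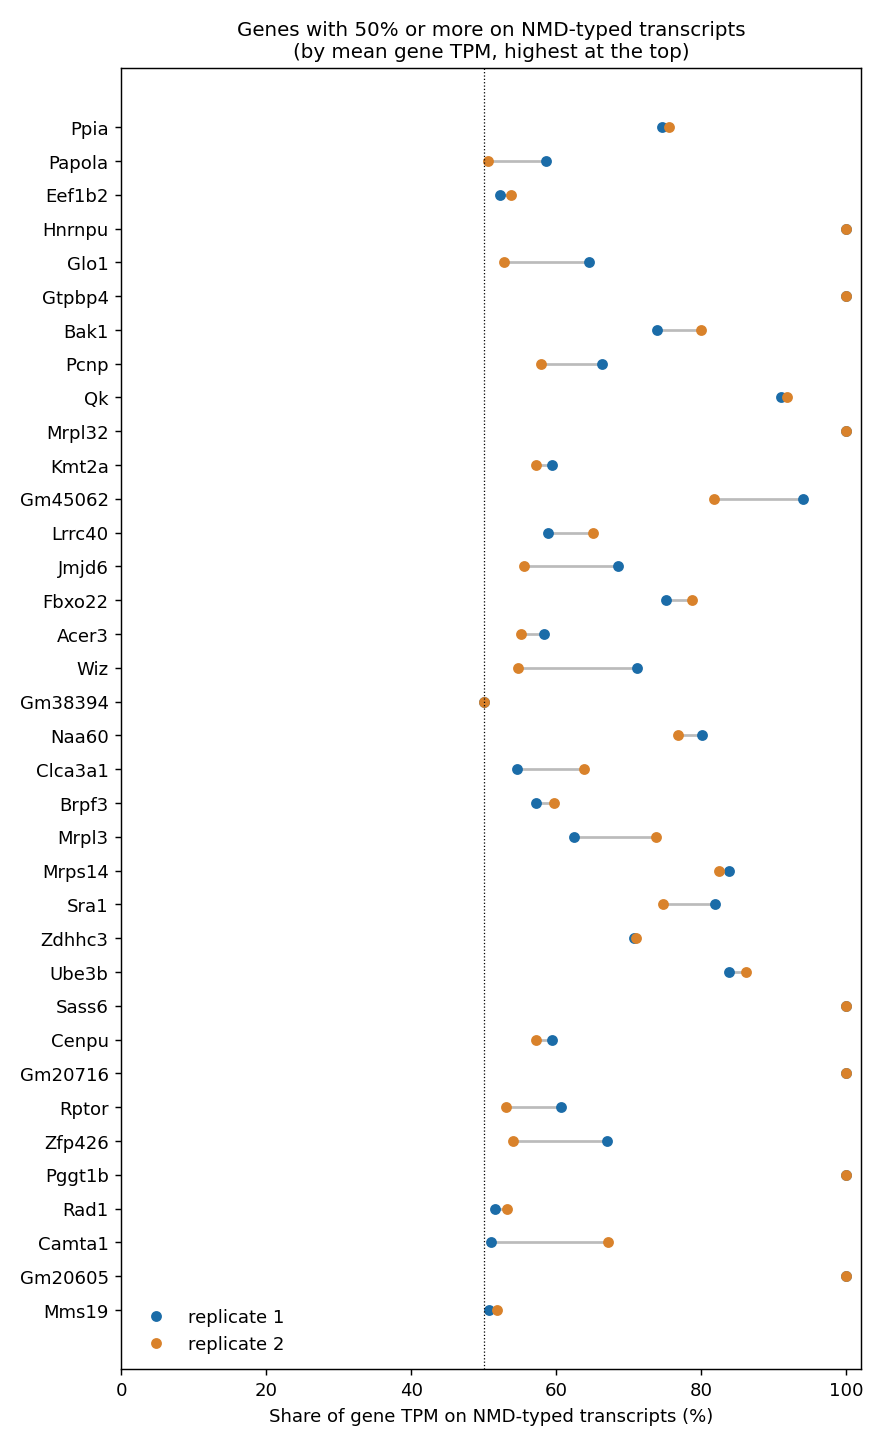
Points give the percent of gene TPM on NMD-typed transcripts in replicate 1 (blue) and replicate 2 (orange) for the 36 genes at 50% or more in both libraries, ordered by mean gene TPM, with a dotted line at 50%. The 7 genes at 100% in both are those with no other transcript in the deposited tables.

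The machinery that recognises these transcripts was present. All 22 listed NMD factors had at least 1 TPM in both libraries, and 13 were expressed at 5 TPM or more in both libraries. Among the highest were Gspt1, the release factor eRF3a (132 and 74.9 TPM), Pnrc2, an adaptor to decapping (56.8 and 35.3 TPM) and the ATPase Ruvbl2 (47.4 and 28.3 TPM). The lowest were the Upf1 cofactor Upf3a (4.57 and 2.47 TPM), the Smg1 complex subunit Smg8 (4.02 and 2.92 TPM) and the helicase Dhx34 (2.24 and 1.28 TPM). Among the expressed factors 3, Smg1, Smg5 and Smg6, have NMD-typed transcripts, and 0 of the 3 reached a share of 10% in both libraries. The only expressed exon junction complex gene with such a transcript, Srrm1, was at 2.05% and 2.07%.

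SR proteins bind exonic enhancers to promote splicing, and Clk kinases phosphorylate them. Of the 22 expressed genes in this list 14 had an NMD-typed transcript, and 5 of the 14 had a share of at least 10% in both libraries, beside 27.9% over all expressed genes with such a transcript. The median share in the list was 9.60% and 7.66%, where all genes had 5.62% and 4.41%. Srsf3, the smallest of the classical SR proteins, had 35.6% and 31.1%. Its NMD-typed transcript carries the stop in a separate exon of 456 nucleotides and had 20.0 and 10.02 TPM, beside 16.9 and 9.25 TPM for the leading coding transcript. That model, too, has another length in the tables (1919 nucleotides) than in M21 (2594).

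Srsf4 had 31.01% and 30.99%, at a low gene level of 9.36 and 7.12 TPM. In Clk1, the NMD-typed transcripts held 29.3% and 25.7%. The leading one (chr1:58412000-58424066, minus strand) skips the exon of 91 nucleotides, so that the frame ends 18 bases after the next junction, and it had 17.8 and 9.89 TPM. Srrm2 had 23.7% and 18.6%. Srsf2 had 18.7% and 14.5%, mainly on a short model with 0 windows of its own. The other members with such a transcript ranged from 0% in both libraries in Srsf5 to 18.3% and 4.25% in Tra2b.

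In the list of hnRNPs and other splicing regulators 22 of 46 expressed genes had an NMD-typed transcript, and 6 of the 22 had at least 10% in both libraries. The share over all expressed genes with such a transcript was 27.9%, so this count lies near the background. The list medians were 7.57% and 4.71%, beside 5.62% and 4.41% over all such genes. Besides Hnrnpu the 6 were Luc7l2, a U1 snRNP-associated protein (33.9% and 25.3%), Hnrnpd, which binds AU-rich elements (35.2% and 22.1%), and Tardbp, the gene of TDP-43 (22.4% and 23.0%). Hnrnpdl, a paralog of Hnrnpd, had 12.5% in each library. Sf3b1, the branch point factor of the U2 snRNP, had 11.1% and 12.4% on a transcript with a separate exon of 56 nucleotides, at 12.1 and 9.63 TPM. The leading NMD-typed transcripts of Luc7l2, Hnrnpd and Tardbp have 0 windows of their own.

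**Figure D5:**
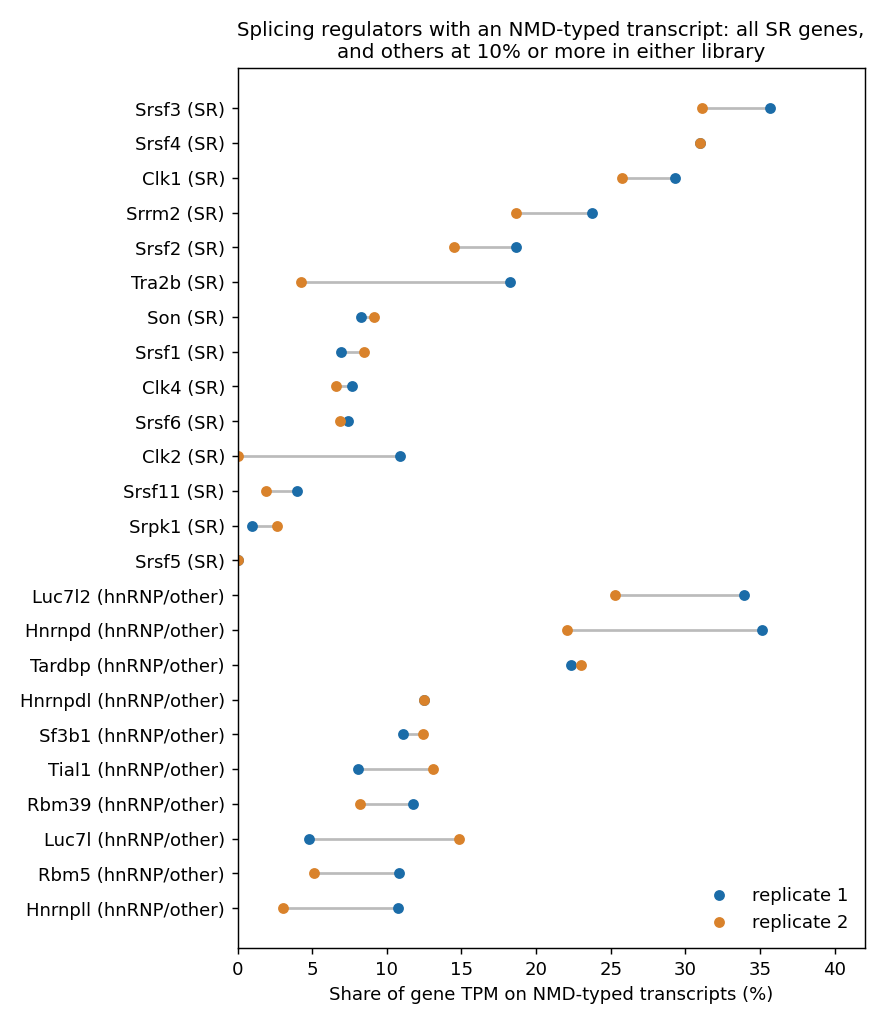
Points give the percent of gene TPM on NMD-typed transcripts in replicate 1 (blue) and replicate 2 (orange) for the 14 expressed SR protein and kinase genes with such a transcript, and for other splicing regulators at 10% or more in either library, without Hnrnpu at 100%. The summed shares of Srsf4 and Hnrnpdl are nearly equal in both libraries, while Tra2b moves from 18.3% to 4.25%. The leading Srsf4 transcript alone moves from 23.4% to 10.6%.

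Among genes of polyamine control, Sat1, the acetyltransferase that starts polyamine breakdown, had 22.5% and 15.7% on a transcript with an extra exon of 110 nucleotides (chrX:155213132-155216449, minus strand). It had 5.65 and 2.59 TPM, against 10.03 and 6.93 TPM for the coding transcript. Azin1, the antizyme inhibitor, had 3.09% and 31.5%, so it did not reach 10% in both. Of 27 expressed erythroid regulators and haem genes 4 had an NMD-typed transcript. Only Alas1, the housekeeping form of the first enzyme of haem synthesis, reached 10% in both, with 14.3% and 30.1% at a gene level of 10.4 and 5.92 TPM. Its leading NMD-typed transcript held 14.3% and 11.0%, on only 21.6 and 12.9 counts. The rest of the share in replicate 2 lay on the other of its 2 NMD-typed transcripts. None of the 8 listed stress response genes and none of the 8 erythroid progenitor markers has an NMD-typed transcript in the tables.

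The libraries were compared for each transcript with a two-sided exact binomial test on rounded counts, relative to the ratio of TMM effective library sizes. A transcript was called at a Benjamini-Hochberg adjusted p below 0.05 over all 31013 transcripts tested and a ratio of at least 2. Such a test compares these libraries and covers counting error only. In bulk RNA, the number of cells in a state and the RNA per cell cannot be told apart. Of 1619 NMD-typed transcripts tested, 341 (21.1%) were called higher in replicate 2, where the share over all transcripts was 15.2%. A further 411 (25.4%) were called higher in replicate 1, beside 14.5% over all transcripts. On the log2 scale the median ratio (replicate 2 over replicate 1) was -0.11, against 0.00 over all transcripts. With separate credibility intervals as well, 95 (5.87%) and 93 (5.74%) NMD-typed transcripts remained, beside 5.76% and 3.77% of all transcripts. edgeR's exact test was also run under a negative binomial model, whose spread between the libraries had a coefficient of variation of 80.9%. That spread was estimated from the same 2 libraries, so it includes the differences under test. The negative binomial test called 0 NMD-typed transcripts and 0 over all transcripts, which for that reason cannot show that the libraries were alike. Of the NMD-typed ones, 256 had an unadjusted p under 0.05 in this test.

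The largest ratios belonged to transcripts at or near 0 in 1 library. For Ccna2, cyclin A2 of S phase and mitosis, the NMD-typed transcript had 515 estimated counts in replicate 1 and 0 in replicate 2 (adjusted p = 5.2e-141, exact binomial test). The exact 95% interval of the ratio began at 125-fold, after TMM scaling and for counting error only. Its level was 15.1 and 0 TPM, while the leading coding transcript had 61.7 and 49.6 TPM. The deposited credibility intervals of the Ccna2 transcript began at 11.7 TPM in replicate 1 and reached 1.01 TPM in replicate 2. They allow a smaller difference than the counts. Actr3, the actin-related protein of the Arp2/3 complex, had 432 and 0 counts on a transcript that skips 125 nucleotides, and the interval of the ratio began at 105-fold. The deposited credibility intervals were 11.4 to 19.6 TPM in replicate 1 and up to 2.92 TPM in replicate 2, and so allow a smaller difference. The gene itself was expressed in both libraries at 136 and 76.6 TPM.

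Zfp687, a zinc finger protein, had 328 and 0.05 counts, Gnptab, which tags lysosomal enzymes, had 327 and 0 counts, and Tcf12, a basic helix-loop-helix partner of Tal1, had 267 and 0 counts. The intervals of the ratio from counting error began at 79.3-fold for Zfp687 and 64.4-fold for Tcf12. The deposited credibility intervals allow a far smaller difference. For Zfp687 they began at 2.73 TPM in replicate 1 and reached 0.938 TPM in replicate 2. For Tcf12 the same bounds were 1.14 and 0.258 TPM. In the opposite direction Polq, DNA polymerase theta, had 0 counts in replicate 1 and 332 in replicate 2, with an interval that began at 99.8-fold. Ube4b, a ubiquitin chain elongation factor, had 0 and 259 counts on a transcript that skips 115 nucleotides, with an interval that began at 77.8-fold. Both folds cover counting error only, and the credibility intervals allow a far smaller difference. For Polq they reached 0.740 TPM in replicate 1 and began at 0.944 TPM in replicate 2. For Ube4b the same bounds were 1.39 and 1.28 TPM, before scaling. A second Naa60 transcript (ENSMUST00000115860) had 0 and 173 counts, but the share of all NMD-typed Naa60 transcripts was 80.2% and 76.8%. For that transcript and for Gnptab the credibility intervals of the libraries overlapped after scaling, and no fold is given.

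Gm16867 differed from these, since 2 of its NMD-typed transcripts had 0 counts in replicate 1 and 174 and 146 in replicate 2, and the gene itself had 0.05 TPM in replicate 1 and 5.41 TPM in replicate 2. In the other 8 genes the summed level was above 5 TPM in both libraries. There the counts of the named NMD-typed transcript were absent, or nearly so, from 1 library while the gene was not. As in Naa60, other NMD-typed transcripts held TPM in that library in Ube4b and Tcf12. The share of all NMD-typed transcripts was 22.4% and 42.3% in Ube4b and 17.5% and 9.04% in Tcf12. In Ccna2, Actr3, Zfp687, Gnptab and Polq that share was 0% or 0.01% in the library without the named transcript. Unique windows were few in several, with 30 of 1360 in Actr3, 28 of 4117 in Zfp687 and 0 of 8598 in Polq, and their part in the result was not tested. The named transcripts of Ccna2, Actr3 and Ube4b are also tagged in M21 as not supported by evidence from the organism.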

How the data were processed

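Total RNA sequencing of 2 biological replicates of G1E cells was analysed, with 1 group and no treatment. For every transcript the deposited tables hold an expected count, the authors' estimate of its reads, without normalisation, per the file headers. TPM as deposited is corrected for transcript length and scaled to a fixed total, and a posterior mean version stands beside the first estimate. Per the file headers, further columns hold the bounds of credibility intervals of TPM, taken here as a signal that is never negative. The isoform share was deposited by the authors as a percent: the part of a gene's TPM that each of its transcripts holds. The deposited records name mm10 and GENCODE M4. Gene tables were not used. Aligner and quantifier: not given in the sources used here.

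Types, coordinates and sequences came from GENCODE M21 on GRCm38, matched on identifiers without version; 101510 of 103639 mouse transcript rows matched, and the rest held 0.240% and 0.167% of the counts. The stop position was compared with the protein-coding transcripts of the same M21 gene. The coding partner is the protein-coding transcript of the same deposited gene with the highest mean TPM. Unique windows are stretches of 31 bases, in the M21 sequence, absent from the other transcripts of the same deposited gene. M21 transcripts that were not quantified, or that stood under another deposited gene, were not compared. Spike-ins and 26345 rows without a mouse transcript name (spike-ins among them) stayed out of tests.

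Counts were rounded and compared by exact binomial tests (SciPy 1.17.1) with TMM from edgeR 4.0.16 (R 4.3.3), for transcripts with at least 10 counts over both libraries. A count of 0 allows up to 0.0948 and 0.0739 CPM; all such limits cover counting error only, and p-values measure only the difference between these libraries. The procedure was tested on simulated data with counting error only. Spread between replicates and error in dividing reads among transcripts were not simulated. DESeq2 1.42.0 gave alternative size factors. Python 3.11.15, pandas 2.3.3, NumPy 2.4.6 and matplotlib 3.10.9 were used.

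The members, the gene lists and the tests were chosen with earlier results of these data known. Named were the 10 members with the highest mean TPM; up to 20 majority genes by mean gene TPM; the 3 genes nearest each side of 50%; up to 6 genes per list with at least 10% in both libraries; the 5 largest ratios in each direction among called members with a mean count of at least 50; and 4 highest and 3 lowest NMD factors. Other genes named were chosen after their values were seen. A gene that the rule names is not reported here.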

Additional observations from a re-analysis of the deposited data

How the results depend on the processing

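No paired analysis was possible because the labels give 1 group. For the calls between the libraries, DESeq2 size factors, total counts and no filter beyond 1 count kept both directions within 1.5 times of the reported numbers, with 261 to 398 higher in replicate 2 and 415 to 586 higher in replicate 1. Total counts moved the part of the calls that was higher in replicate 2 from 45.3% to 30.8%. Over all transcripts the calls moved the same way. There 4724 were higher in replicate 2 and 4482 in replicate 1, against 3387 and 7476 with total counts. The negative binomial exact test called 0 in each direction, also over all transcripts, with a spread that includes the differences under test. The requirement of separate credibility intervals left 95 and 93 (5.87% and 5.74%), beside 5.76% and 3.77% of all transcripts. The share of all TPM (0.413%) was 2.47% of the TPM of nuclear protein-coding genes, by the smaller denominator; it was 0.306% and 0.519% in single libraries. The number of majority genes (36) was 22 where the leading transcript's interval lay above that of the most abundant other transcript. These 22 include the 7 genes without another transcript, which pass by construction. The number of majority genes was 67 and 15 at a gene TPM of at least 1 and 10, and 105 and 17 at shares of at least 30% and 70%. With 1 library alone it was 49 without replicate 1 and 77 without replicate 2, since genes then had to pass in 1 library only. Alternatives chosen after seeing the data gave 36 with transcripts grouped by the M21 gene, and 21 when only NMD-typed transcripts of unchanged length and without the readthrough tag were counted, in genes with a coding transcript. Grouped by the M21 gene, the share of Hnrnpu was 55.0%, in place of 100%. The median share per gene (5.02%) was 6.44% with posterior mean TPM, and 4.41% and 5.62% in single libraries. Of the 188 alternative values for single genes and transcripts, 177 stayed within their spread or call and 9 moved. The other 2 passed the 2-fold limit under total counts (Rpl10a and Srrm2, lower in replicate 2). The 177 do not measure stability. A share from 1 library always lies within the SD of the 2 libraries, and the change of filter leaves each ratio as it was. With posterior mean TPM, Fbxo22 had 59.6% and Naa60 64.3%. Depth limits the rarest transcripts: 3068 of the 4687 had too few counts to be tested.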
